A study of Mus musculus with 8 samples.

Results

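Of the 8 arrays of the series, the 2 that carry replicate number 1, Neo replicate 1 and HDAC4 replicate 1, were set against the 6 that carry numbers 2 to 4. The number in the sample title chose them. The samples are C2C12 cells, an established C3H mouse myoblast line that stops dividing and fuses into myotubes when serum is withdrawn. Cells of the control group (Neo) had been stably selected with a retrovirus encoding Neo, and cells of the other group with a retrovirus encoding HDAC4, a class IIa histone deacetylase. In both groups the medium held 2% horse serum from 90% confluence onwards, and RNA was taken on day 4. Each array carried 1 such sample in Cy5 beside a common mouse reference RNA in Cy3. Both groups are of 1 cell line, and whether a group is 1 selected population or several is not said. The labels give no culture, passage, labelling round, slide or date, and they do not say what a replicate number marks. Differences between the pair and the others may therefore come from the cultures or from the handling of the arrays, and these cannot be told apart. Whether each sample is its own culture is not said either, and a p-value here may reflect technical spread alone.

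C2C12 differentiation couples exit from the cell cycle to the switching on of sarcomere genes by myogenic transcription factors. In dividing cells, genes of mitosis are held off until late in the cycle through repeated short elements near their start sites. Cells that sense viral nucleic acid secrete type I interferon, and the answering cells switch on a shared set of genes through interferon-stimulated response elements.

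Values are log2 ratios of cells over reference, with each array centred on its own median. This direction was read from muscle genes and is likely rather than stated. A difference is the mean of the pair minus the mean of the other 6, with the group as covariate. When all 8 values are present, it does not depend on which array of the pair is labelled Neo. A probe or gene is said to have risen or fallen where limma's test gave an adjusted p (Benjamini-Hochberg, over all probes tested) under 0.05. Of 31769 probes, 16862 had a value on both arrays of the pair, and the 16338 of these with values on at least 4 of the other 6 were tested.

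The cells on the pair carried the markers of myotubes. All 6 measured myotube marker genes had a value on every array, and the median of their log2 ratios was 8.11 to 8.27 on the pair and 8.03 to 8.55 on the other 6. Myog, a myogenic transcription factor, differed by 0.33 ± 0.25 (SE), and Ckm, the muscle creatine kinase, by 0.08 ± 0.23 (SE). Neither passed the test. Of the 6, Ttn alone passed, and it fell. On the tested probes of these genes 97.1% of values were at the inferred floor of the reference signal, described below. The myoblast markers were high as well, with medians of 5.09 and 5.99 on the pair and 5.36 to 6.82 on the other 6, and none passed. The fibroblast markers, 5 of which were tested, had median log2 ratios of -2.82 (Neo) and -1.29 (HDAC4) on the pair and of -0.02 to 0.33 on the other 6. Dcn, whose values are those medians on the pair, was the only one of the 5 to pass the test, and it fell. As differences, the 5 genes had a median of -0.85 within Neo, with 1 positive, and of 0.05 within HDAC4, with 3 positive. Medians of the macrophage markers were -3.23 and -3.06 on the pair and -4.05 to -3.01 elsewhere. Those of the osteoblast markers were -2.33 and -2.12 against -3.06 to -2.18. The macrophage medians rest on 8 genes on the pair and 5 to 8 elsewhere, the osteoblast medians on 2 and on 1 to 2. They are thus not all taken over the same genes.

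The pair had 19248 (Neo) and 17527 (HDAC4) probes with a value, inside the range of 17014 to 22193 of the other arrays. Its log2 ratios were more widely spread, with interquartile ranges of 1.40 and 1.35 against 1.18 to 1.25 on the other 6. The share of values at the inferred floor of the reference signal, where the ratio reports the signal of the cells alone, was 12.2% on both arrays of the pair and 9.40% ± 0.93 (SD, n = 6) on the others. The exact two-sided permutation p was 0.0714 for both measures, the smallest that 2 against 6 arrays allow.

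Of the 16338 probes, 3645 (22.3%) passed the test, 1787 of them higher on the pair (10.9%) and 1858 lower (11.4%). The median difference over all probes was 0.04. The pair was already known to stand apart, so this count describes the separation and is not independent evidence of it. With the replicate number as a block, 2275 probes passed. Without Neo replicate 1 the count was 2286, without HDAC4 replicate 1 it was 2010, and within the Neo arrays alone and the HDAC4 arrays alone it was 227 and 2033. On 5654 probes (34.6%) both arrays of the pair lay outside the range of the other 6. Over the 8649 named genes, 1259 rose (14.6%), 770 fell (8.9%) and 25 had probes that passed in both directions, and these shares are the background for each gene list below. In total 23.7% of named genes passed. The 5685 probes without a gene name fell more often than they rose, with 16.8% lower and 7.67% higher.

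Promoter sequences are shown for genes of both groups that moved together, because they hold the elements by which these groups are known. They are RefSeq sequences of assembly GRCm38.p6, read 5′ to 3′ on the strand of the gene and ending at or before the start site. The first 3 are interferon-response genes that fell on the pair, and capitals mark the interferon-stimulated response element, searched as GAAA, any 2 bases and GAAA again, or its complement. They lie at chr19:34583367-34583456 on the plus strand, chr19:34640764-34640853 on the plus strand and chr4:156200835-156200924 on the minus strand.
Ifit3: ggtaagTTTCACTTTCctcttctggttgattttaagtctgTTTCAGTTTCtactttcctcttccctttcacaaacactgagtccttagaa
Ifit1: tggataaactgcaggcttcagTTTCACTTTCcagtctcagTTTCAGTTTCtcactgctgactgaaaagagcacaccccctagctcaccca
Isg15: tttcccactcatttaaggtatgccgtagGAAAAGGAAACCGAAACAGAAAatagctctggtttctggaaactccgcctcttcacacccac

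The next 3 are mitosis genes that rose on the pair. Capitals mark TTTGAA, the core of the cell cycle homology region, and CCAAT, the CCAAT box bound by NF-Y, or their complements. They lie at chr4:118437344-118437411 on the minus strand, chr7:80294396-80294451 on the plus strand and chr19:37376313-37376381 on the plus strand.
Cdc20: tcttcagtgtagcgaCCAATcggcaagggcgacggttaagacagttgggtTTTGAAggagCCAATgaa
Prc1: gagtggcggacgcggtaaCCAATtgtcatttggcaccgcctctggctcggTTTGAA
Kif11: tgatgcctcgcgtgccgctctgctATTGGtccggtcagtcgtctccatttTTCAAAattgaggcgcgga

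Each motif was searched on both strands of the RefSeq window from 250 bases before to 50 after the start site. Of the 10 interferon-response genes that fell, 8 had such a window and 5 of them held the interferon-stimulated response element, against 3.44% of all 32851 windows (3.99% of all genes with one). Of the 18 mitosis genes that rose, 15 had a window. Among these, 10 held TTTGAA, against 17.9% of all windows (20.2% of genes), and 10 held CCAAT, against 37.4% (41.1% of genes). The matches of TTTGAA and CCAAT do not overlap in the windows shown. The metal response element, searched as TGCNCNCGG, was in 3 of 7 genes of the NRF2 and metal list that rose. It was in 4.28% of all windows (4.87% of genes). The sterol regulatory element, searched as TCACNCCAC, was in 0 of 6 cholesterol genes that rose, against 1.24% of windows (1.44% of genes). A match is a description of the letters in the window, not a site shown to be bound. List members that did not pass were not counted, so these shares describe the lists and cannot be tied to the difference on the pair.

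Genes of mitosis and cell division were higher on the pair. Of 34 measured genes of this list, 18 rose and 0 fell, against 14.6% and 8.9% of all named genes, and the median difference was 0.76 against 0.10 for all named genes. All 34 had a positive difference. Bub1, a kinase of the spindle checkpoint, stood at -2.64 on Neo replicate 1 and -2.20 on HDAC4 replicate 1, while the other 6 arrays ran from -4.32 through a median of -3.58 to -3.49. It was 2.49-fold higher on the pair (log2 difference 1.31 ± 0.19, SE; adjusted p = 0.00401 in limma). Both arrays of the pair thus lay above all 6 others. Cdc20, which activates the anaphase-promoting complex, stood at -2.92 and -1.83 on the pair and between -3.84 and -3.29 on the others, with a median of -3.54. It differed by 1.15 ± 0.18 (SE).

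The other mitosis genes that rose have roles through the whole of division. They include the cyclin gene Ccna2 (difference 0.93), the cyclin-dependent kinase gene Cdk1 (0.83) and the mitotic kinases Aurka (0.78) and Aurkb (0.87). The checkpoint kinase Ttk (1.34 on one of its probes, 0.85 and not passing on the other), the spindle motor Kif11 (1.12), the centromeric histone Cenpa (1.17), the topoisomerase Top2a (0.90) and the cytokinesis proteins Anln (1.08) and Prc1 (0.68 and 0.64 on its probes) also rose. Mki67, a common marker of dividing cells, differed by 0.04 ± 0.17 (SE) and did not pass. All values of Mki67 lay between -4.60 and -4.07. The median difference of the list was 0.40 within Neo and 1.05 within HDAC4, a gap that was not tested for lists. Without HDAC4 replicate 1, 9 of the 34 genes passed, and without Neo replicate 1, 24 did. On arrays scaled to one spread 29 rose. Under the replicate block 15 rose. Of the genes that rose as first fitted, Cdk1, Prc1, Cks2 and Mad2l1 (0.65) no longer passed, so the 15 are not all from those.

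Of 32 measured genes of DNA replication, 11 rose and 1 fell, with a median of 0.42. The median was 0.48 within Neo and 0.28 within HDAC4, so the order against the mitosis list turns between the groups. Mcm5, a subunit of the replicative helicase, stood at -2.42 and -2.29 on the pair and from -3.68 through -3.55 to -3.31 on the others (difference 1.15 ± 0.11, SE; adjusted p = 0.00139 in limma). Both arrays of the pair were above all others. Pola1, the catalytic subunit of DNA polymerase alpha, differed by 1.34 on one probe (adjusted p = 0.00429) and by -0.27 on another that did not pass. The cyclin genes Ccne1 (0.77 on one probe, 1.08 and not passing on the other) and Ccne2 (0.72), the thymidine kinase Tk1 (0.95) and the sliding clamp Pcna (0.69 and 0.45 on its probes) rose too. E2f1, a transcription factor that drives this set, was the gene that fell, by 0.92 on one of its probes, while its other probe differed by -0.20 and did not pass. Of the replication-dependent histones, 5 were measured. H1f4 and H1f2 fell, by 0.88 and 0.56, and none rose. Ccne2, Tk1, H1f2 and one of the 2 Pcna probes no longer passed under the replicate block. Nor did the replication genes Mcm4 (0.53), Mcm7 (0.51) and Rrm2 (0.50), which had risen as first fitted.

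**Figure D1:**
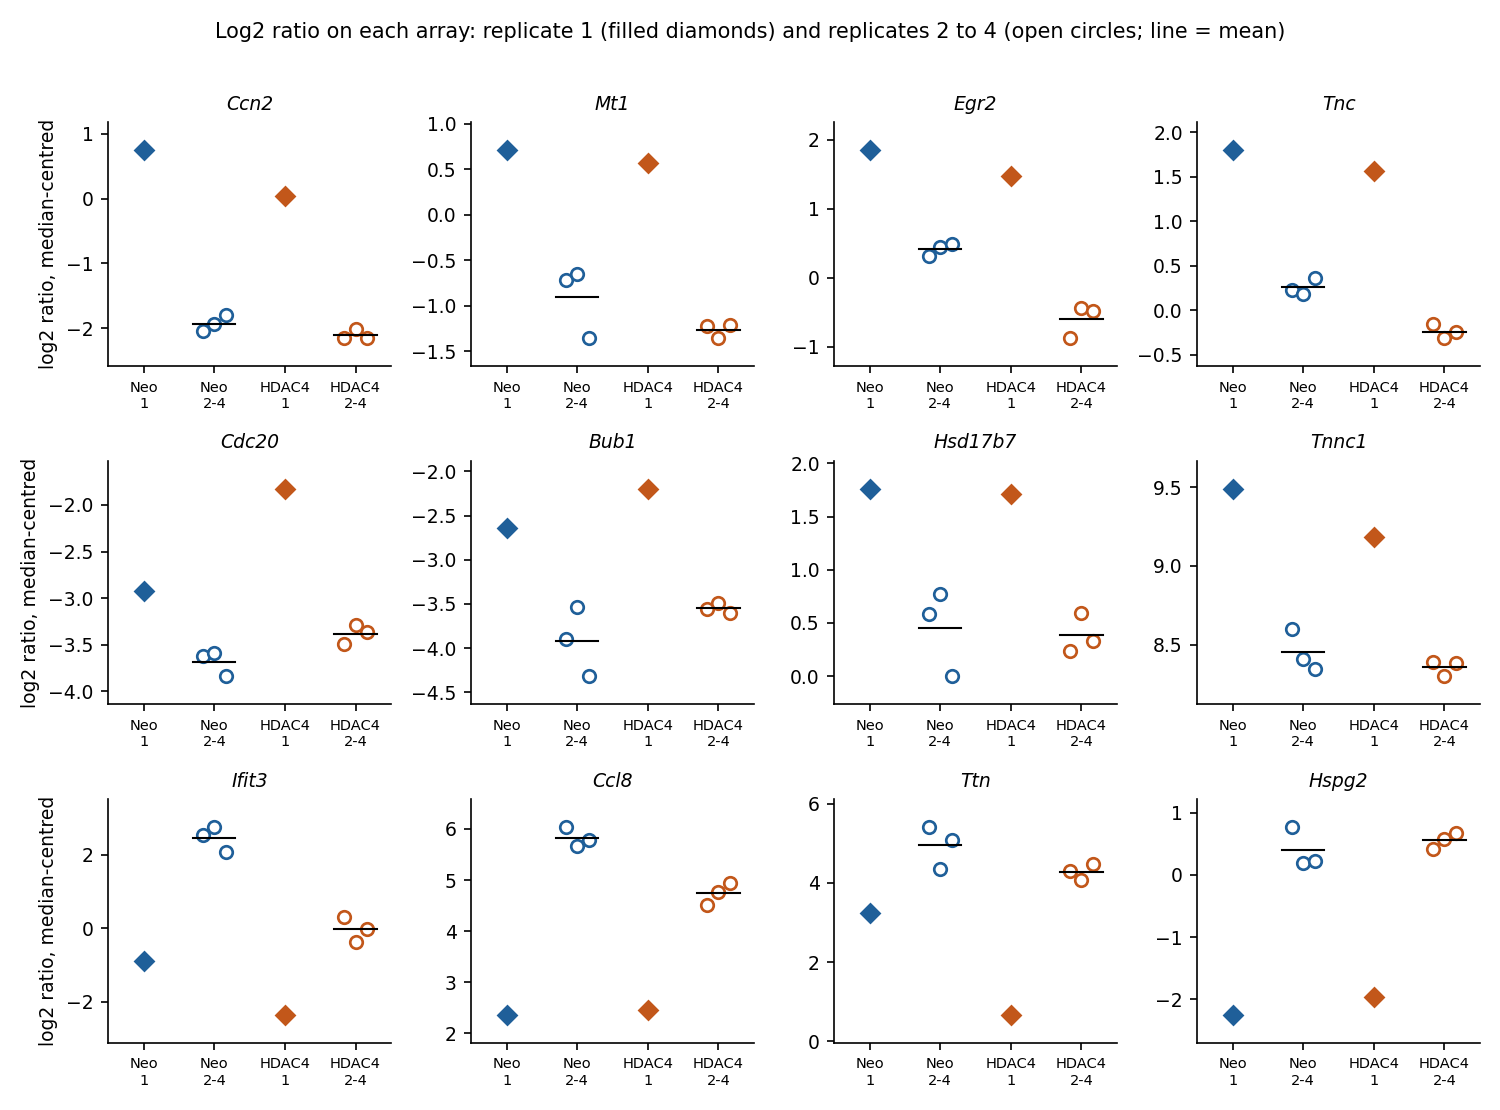
Median-centred log2 ratio (vertical axis, each panel on its own scale) of 12 genes on each of the 8 arrays, with replicate 1 as filled diamonds, replicates 2 to 4 as open circles, Neo in blue, HDAC4 in orange and lines at the mean of replicates 2 to 4. Bub1 on the pair was at -2.64 and -2.20, above the highest other value of -3.49, while Ifit3 on each array of the pair lay below the other arrays of its group.

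Type I interferon-response genes were lower on the pair. Of 28 measured genes 10 fell and 0 rose, with a median difference of -0.66, and 4 of the 28 had a positive difference. Ifit3, an inhibitor of viral translation and replication, stood at -0.88 on Neo replicate 1 against 2.54, 2.75 and 2.08 on the other Neo arrays. On HDAC4 replicate 1 it stood at -2.35 against 0.31, -0.38 and -0.03 on the other HDAC4 arrays. It was 7.11-fold lower on the pair (difference -2.83 ± 0.28, SE; adjusted p = 0.00139 in limma). The value of each array of the pair lay below those of all 6 others. The ubiquitin-like modifier gene Isg15 stood at -3.21 on Neo replicate 1 against 1.09, 1.18 and 0.95, and at -2.20 on HDAC4 replicate 1 against -0.94, -1.13 and -0.93. Ifit1 differed by -2.79, the antiviral synthetase-like gene Oasl2 by -1.98, the transcription factor gene Irf7 by -1.72, Bst2, which tethers virions to the cell surface, by -1.48, and the synthetase Oas2 by -1.44 on one probe and by 0.62, not passing, on the other. The immunoproteasome subunit Psmb8 (-1.03), the kinase Eif2ak2 (-0.98) and Ifi27 (-0.87) fell as well. Zbp1, a sensor of viral nucleic acid outside the list, fell by 2.46 and 2.45 on its probes.

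The median over the list was -1.12 within Neo and -0.21 within HDAC4, a gap that was not tested for lists. Without HDAC4 replicate 1, 16 of the 28 passed, and without Neo replicate 1, 8 did. Genes of NF-kappaB and chemokines did not share the pattern as a list: 3 of 18 fell, 0 rose and the median was 0.04. The monocyte chemokine gene Ccl8 was one of the 3. It stood at 2.36 and 2.45 on the pair and from 4.50 through 5.31 to 6.03 on the others, a 7.33-fold lower level (difference -2.87 ± 0.25, SE; adjusted p = 0.00118 in limma). Both values of the pair and 3 of the other 6 were at the reference floor. The other 2 were Ccl2 (-0.91) and Cxcl12 (-0.83), and neither passed under the replicate block.

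**Figure D2:**
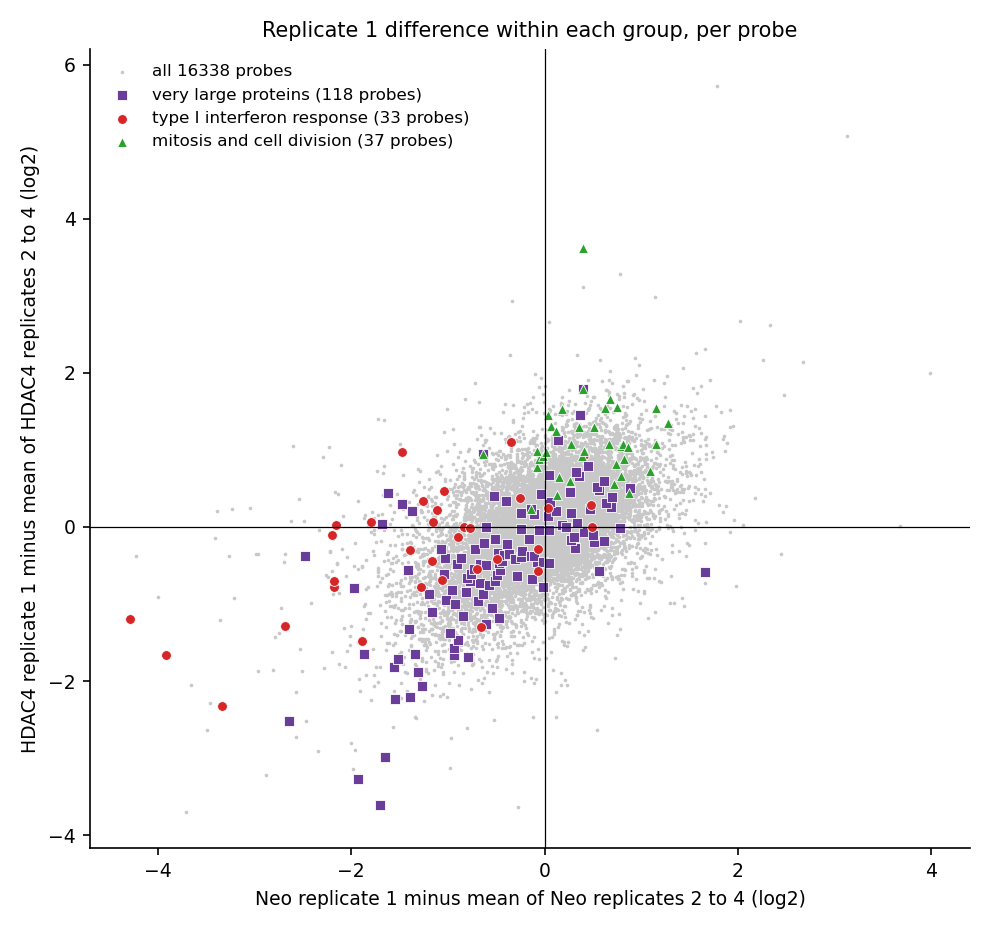
Replicate 1 difference (log2) of each of 16338 probes within Neo (horizontal axis) and within HDAC4 (vertical axis), with probes of 3 gene lists in colour. Interferon-response probes reach further down in Neo, mitosis probes further up in HDAC4, and the list of very large proteins, chosen after values were seen, has a median of -0.28 in both.

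The difference could be compared between the groups because they share no array. Of the 407 probes at least 1 higher on Neo replicate 1 than on the other Neo arrays, 85.3% were also higher on HDAC4 replicate 1, against 53.3% of all probes, and 25.8% were higher by at least 1, against 3.72%. Of the 760 probes at least 1 lower within Neo, 84.0% were lower within HDAC4, against 46.7%, and 35.1% were lower by at least 1, against 4.82%. Over all 16338 probes the differences correlated at r = 0.52 (Spearman rho 0.50). This correlation is across probes, which are not replicates, and arrays with the same number may share a labelling or hybridization round.

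Genes of the TGF-beta and YAP list went both ways, and its member Ccn2 had one of the largest rises. Ccn2, a matricellular protein and target of TGF-beta and YAP, stood at 0.74 and 0.04 on the pair and from -2.15 through -2.03 to -1.80 on the others. It was 5.30-fold higher (difference 2.40 ± 0.15, SE; adjusted p = 3.63e-04 in limma). Both arrays of the pair were above all others by more than the whole spread of those 6. Of 14 measured, 4 rose, among them Skil (0.70 on one of its probes), Smad7 (0.74) and Nuak2 (0.81), and 2 fell, Tpm1 (-1.26 on one of its 4 probes) and Ankrd1 (-0.86), and the median was 0.21. Smad7, Tpm1 and Ankrd1 no longer passed under the replicate block. Outside that list, Tnc, the matrix protein tenascin C, rose by 1.67 ± 0.12 (SE), Pdgfa, a growth factor, by 1.65 ± 0.16 (SE) on one probe and by 0.78 and 0.30 on the others, of which the last did not pass. Timp3, an inhibitor of matrix proteases, rose by 1.41 and Lox, which cross-links collagen, by 0.96.

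Structural matrix genes went both ways. Of 30 measured genes of the fibrillar and basement membrane list, 5 rose, 7 fell and 1, Col4a2, passed both ways. Dcn, the collagen-binding proteoglycan decorin, stood at -2.82 and -1.29 on the pair and from -0.31 through 0.11 to 0.23 on the others (difference -2.11 ± 0.28, SE; adjusted p = 0.00321 in limma). Thbs1, the matricellular thrombospondin 1, fell by 1.34 and the laminin chain gene Lamb1 by 1.09. The collagen genes Col12a1, Col8a1 and Col5a1 fell by 0.98, by 1.08 on one of 2 probes and by 0.92 on one of 5 probes. The laminin gene Lama2 fell as well, and Col4a1, Lamc1, Fbln1, Lox and Tnc were the 5 that rose. Hspg2, the basement membrane proteoglycan perlecan, was not on that list. Its probes fell by 2.58 and 0.64, and another differed by -0.27 and did not pass. The median of the list was -0.29 within Neo and 0.24 within HDAC4. Under the replicate block 2 rose and 6 fell, and Lama2, Col4a1, Lamc1 and Fbln1 no longer passed.

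Immediate early genes moved in both directions. Of 21 measured, 5 rose and 3 fell. Egr2, a growth-factor-induced transcription factor, stood at 1.85 and 1.47 on the pair and from -0.87 through -0.06 to 0.49 on the others (difference 1.75 ± 0.18, SE). Both values of the pair lay above all 6 others. Egr1 (0.92), Atf3 (1.01), Klf4 (0.64) and Srf (0.71) rose. Fosl2 and Jun, subunits of AP-1, fell by 1.31 and 0.76, and Egr3 fell by 0.72. Klf4 no longer passed under the replicate block.

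Genes of the NRF2 and metal response and of cholesterol synthesis rose more often than all named genes, and so did cytosolic heat shock genes as first fitted. In the NRF2 and metal list 9 of 21 measured genes rose and 2 fell, with a median of 0.39. Mt1, the metal-binding metallothionein, stood at 0.71 and 0.57 on the pair and from -1.35 through -1.22 to -0.65 on the others. It was 3.30-fold higher (difference 1.72 ± 0.19, SE; adjusted p = 0.00193 in limma), and its other probe rose by 1.07. Mt2 (0.83), the thioredoxin reductase Txnrd1 (1.38), the peroxiredoxin Prdx1 (0.62), the ferritin light chain Ftl1 (0.78) and the transferrin receptor Tfrc (0.79) rose. Gsta4 and Txn1 fell, by 0.70 and 0.40.

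In the cholesterol synthesis list 7 of 19 rose and 0 fell, with a median of 0.32. Hsd17b7, a sterol reductase, stood at 1.76 and 1.72 on the pair and at most at 0.77 elsewhere (difference 1.32 ± 0.20, SE). Lss (1.15), Mvd (1.06), Msmo1 (0.91), Sqle (0.79), and Idi1 (0.90) and Sc5d (0.75) on one of 2 probes each, enzymes between mevalonate and cholesterol, rose too. Of 11 cytosolic heat shock genes 6 rose and 0 fell, including Hsph1 (0.74), Dnajb1 (0.69) and Hspb1 (0.56). This count was 2 under the replicate block and 1 without Neo replicate 1. Without HDAC4 replicate 1, 3 cholesterol genes and 4 of the NRF2 and metal list rose. Txn1, Dnajb1 and Hspb1 no longer passed under the block. Nor did Gsr (0.44), Srxn1 (0.58) and a Gclc probe (0.50), which had risen in the NRF2 and metal list as first fitted. Other stress lists stayed nearer the background: in the ATF4 and amino acid list 2 of 25 genes rose and 3 fell, with a median of 0.01, and 3 of 17 endoplasmic reticulum chaperones rose, none of them under the block.

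**Figure D3:**
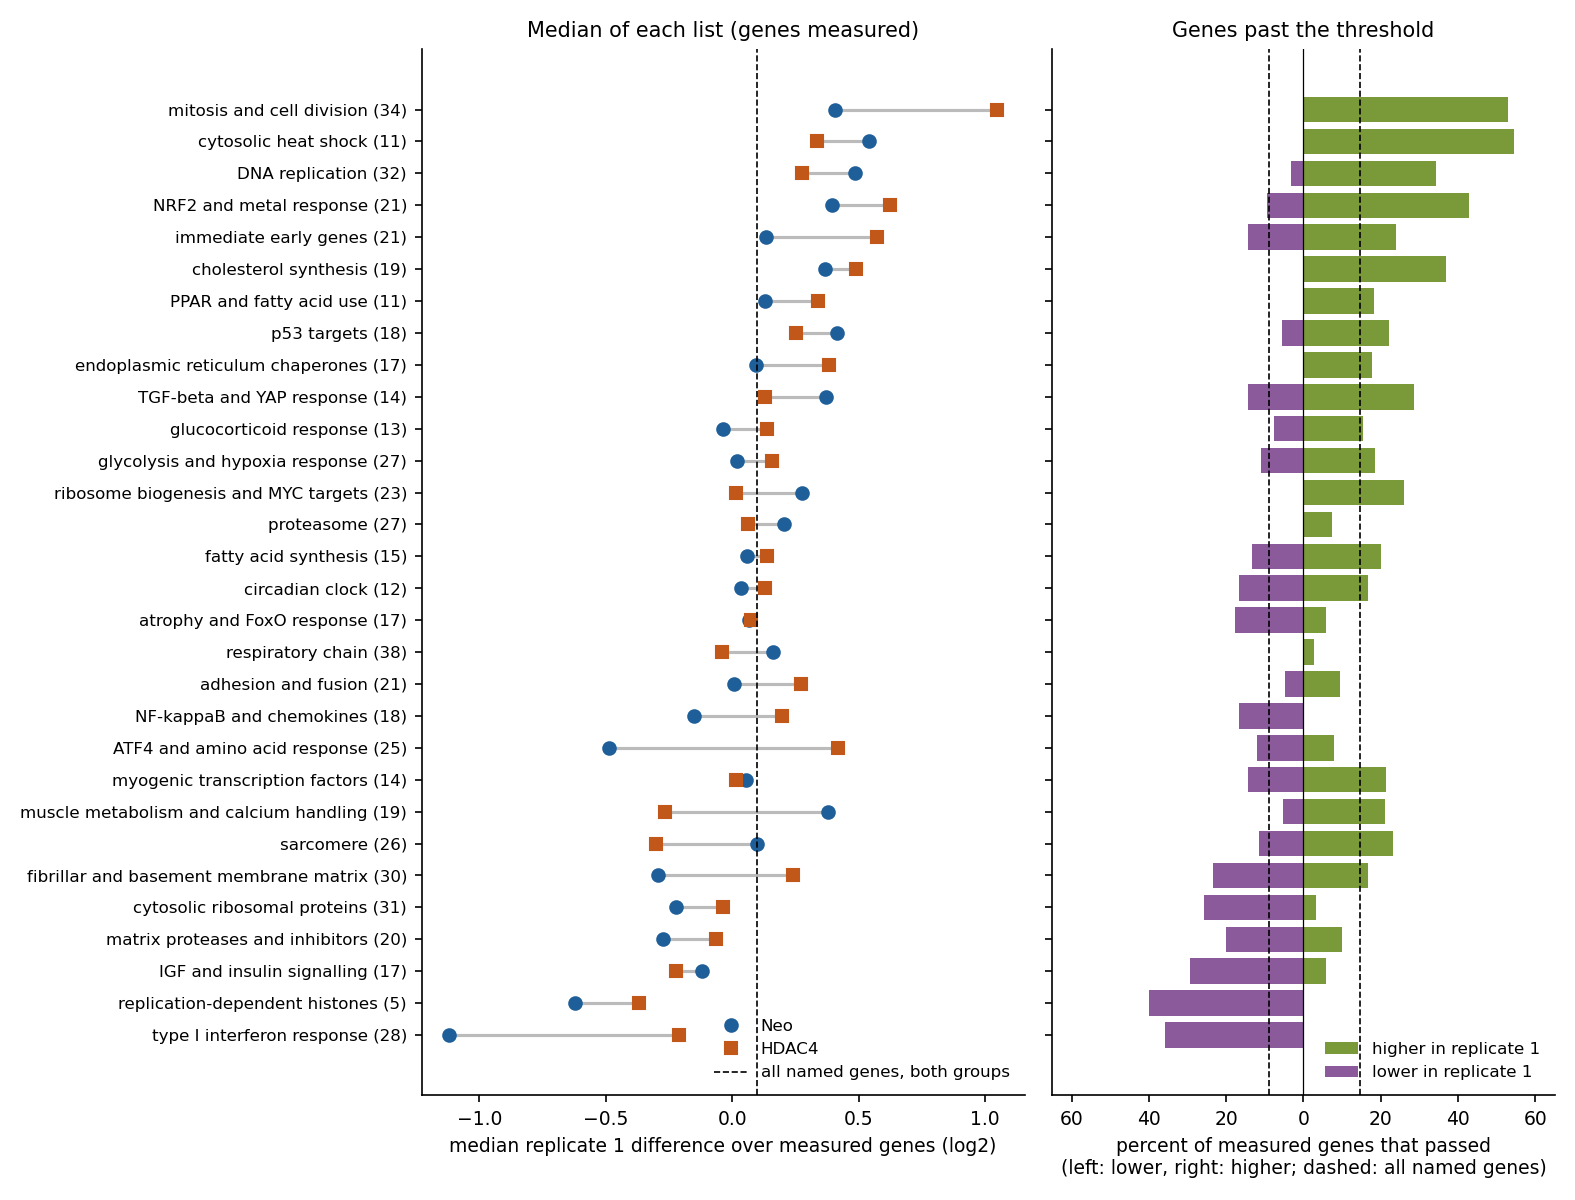
Left, the median replicate 1 difference (log2) of each of the 30 gene lists within Neo (circles) and within HDAC4 (squares), with the number of measured genes in brackets and the median of all named genes dashed. Right, the percent of measured genes that passed higher or lower, with the shares of all named genes, 14.6% and 8.9%, dashed. The mitosis median is 0.40 in Neo and 1.05 in HDAC4, the highest of the 30 within HDAC4 but not within Neo, and the interferon median is -1.12 in Neo, the lowest there, and -0.21 in HDAC4.

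Muscle genes split. Of 26 measured sarcomere genes 6 rose and 3 fell as each array was centred, with a median of -0.04, but on arrays scaled to one spread 0 rose and 15 fell, and with quantile normalization 3 rose and 4 fell. These genes lie far above the reference. Their differences changed with the scaling, and the cause was not tested. Tnnc1, the slow and cardiac troponin C, stood at 9.49 and 9.18 on the pair and from 8.30 through 8.39 to 8.60 on the others. Its difference was 0.93 ± 0.12 (SE; adjusted p = 0.00307 in limma) as centred and -0.23 on arrays scaled to one spread. Myl4 (1.07), Actc1 (1.24 and 0.72 on its probes), Tnni1 (0.79), Tnnc2 (0.69) and Tpm2 (0.57), which encode an embryonic myosin light chain, cardiac actin, troponins and a tropomyosin, also rose as centred. In the sarcomere list 86.2% of values were at the reference floor. Under the replicate block Tnnc2, Tpm2 and one of the 2 Actc1 probes no longer passed.

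The sarcomere genes that fell include its giants. Ttn, titin, the spring that spans from Z-disc to M-line, had 7 tested probes, of which 5 fell and 0 rose, with differences from -2.65 to -0.36. The probe with the largest fall stood at 3.25 and 0.67 on the pair and from 4.07 through 4.42 to 5.40 on the others (adjusted p = 0.00545 in limma). Neb, nebulin, which runs along the thin filament, fell by 1.89 and 1.80 on its probes. Every value of the Neb probe at -1.89, and most values of the Ttn probes, were at the reference floor. Of the 281 probes at the floor wherever measured, 24.6% fell and 5.34% rose, with a median of -0.31. How far the falls of Ttn and Neb share in this was not tested. Actn3, a Z-disc actinin, fell by 0.70. Casq2, a calcium-binding protein of the sarcoplasmic reticulum and not a sarcomere gene, had a difference of 3.64 ± 0.91 (SE), but its values overlapped. They were 8.45 and 7.74 on the pair, 5.95, 8.02 and 6.04 on the other Neo arrays, and 1.52 and 2.49 on HDAC4 replicates 2 and 3. Under the replicate block Casq2 no longer passed, nor did one of the 5 Ttn probes.

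A list of 104 genes that encode very large proteins was drawn up after Ttn, Neb and Hspg2 had been seen to fall, and it is described without a test. Transcript lengths and probe positions were not used here, so these differences were not set against them. Of its 65 measured genes 28 fell and 7 rose, with a median of -0.30. Among the 8584 other named genes 742 fell and 1252 rose, with a median of 0.10. Plec, a linker of cytoskeletal filaments, fell on 4 of its 6 probes, with differences over all 6 between -1.75 and 0.10. The microtubule-binding Map1a fell by 1.69 and 0.98, and the muscle filamin Flnc by 1.62 on one probe, while its other probe differed by -0.24 and did not pass. The receptor gene Notch2 (-1.36), the kinase gene Mtor (-1.30 on one of its 4 probes), the dystrophin relative Utrn (-0.83 and -0.39) and Acaca, the acetyl-CoA carboxylase of fatty acid synthesis (4 of 5 probes), fell too. Flna (0.62), Notch1 (0.70), Sptan1 (0.55) and Fasn (0.51) rose. Under the replicate block 24 genes fell and 4 rose, and Sptan1, Fasn, 2 Plec probes and the Utrn probe at -0.39 no longer passed. The counts of this list were 27 lower and 11 higher on arrays scaled to one spread, and 24 lower and 9 higher over probes never at the reference floor. Within the HDAC4 arrays alone 18 fell, and within the Neo arrays alone 7 did.

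**Figure D4:**
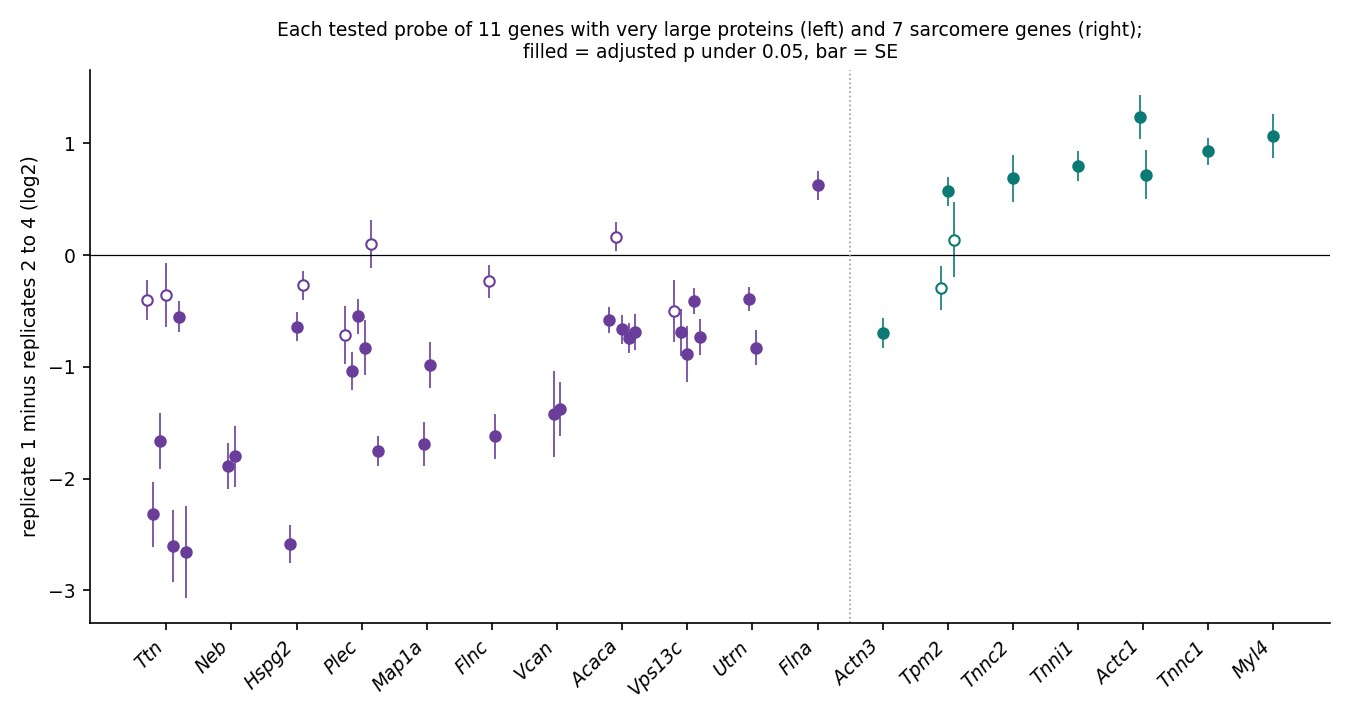
Difference between the pair and the other arrays (log2, bars SE) for every tested probe of 11 genes with very large proteins, at left, and of 7 sarcomere genes, at right, with filled points past the threshold. Probes of 1 gene can differ: those of Ttn run from -2.65 to -0.36 and those of Hspg2 from -2.58 to -0.27.

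Probes of the same gene often gave different sizes. Of 1510 named genes with several tested probes, 184 (12.2%) had differences that spanned more than 1 between probes, and 642 had a probe that passed. Col4a2, a chain of collagen IV, fell by 2.02 and 1.26 on 2 probes, rose by 0.62 on another and differed by -0.15 on the last, which did not pass. Igf1r, the IGF receptor, fell by 1.27 and 0.50 on 2 probes and rose by 0.85 on another. Gapdh, a glycolytic enzyme often used as a standard, had 9 tested probes with differences from -0.06 to 0.88, of which 6 rose. Under the replicate block 2 of the Gapdh probes and the Igf1r probe at -0.50 no longer passed. Such genes have no single difference here.

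Genes of IGF and insulin signalling fell more often than they rose. Of 17 measured genes of this list, 5 fell, 1 rose and Igf1r went both ways. Irs1, the docking protein of the insulin receptor, stood at -0.75 and -0.39 on the pair and from 0.61 through 0.93 to 1.02 on the others (difference -1.47 ± 0.16, SE; adjusted p = 0.00178 in limma). The binding protein genes Igfbp4 (-1.38), Igfbp5 (-1.10) and Igfbp6 (-0.73) fell, and the imprinted RNA H19 rose by 0.92. Passing genes of other lists are added here one by one. Foxo1 and Foxo3, transcription factors restrained by insulin, went opposite ways, by 0.69 and -0.79. Mef2a, a muscle transcription factor and partner of class IIa deacetylases, had a difference of -1.34 (adjusted p = 0.00466), and the cell cycle inhibitor gene Cdkn1c one of -1.47 (adjusted p = 0.00586). For both, the value of HDAC4 replicate 1 lay inside the range of the other 6 arrays. Id2, an inhibitor of myogenic factors, rose by 1.17.

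Some lists hardly moved or moved by little. Of 38 respiratory chain genes 1 rose and 0 fell, and of 27 proteasome genes 2 rose and 0 fell. Of 31 cytosolic ribosomal protein genes 8 fell, by 0.59 to 0.40, and Rps2 alone rose. With the replicate number as a block 1 of these genes fell.

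The group difference itself was not the same in the pair. Over the 12775 probes with values on all 8 arrays and none at the reference floor, HDAC4 minus Neo within the pair correlated at r = -0.02 (rho -0.02) with HDAC4 minus Neo over replicates 2 to 4. The same correlation was 0.48 for pair 2, 0.45 for pair 3 and 0.40 for pair 4, each against the mean of the other pairs numbered 2 to 4. These are descriptions across probes, computed after the values were seen, and the arrays compared in each are different. Of the 50 such probes that were at least 1 lower in HDAC4 over replicates 2 to 4, 25 were lower in HDAC4 within the pair, where their median difference was 0.0036 against -1.30. Of the 28 at least 1 higher, 19 were higher within the pair, with a median of 0.08 against 1.16. Over all 12775 probes, 50.5% were higher in HDAC4 within the pair. The 50 and 28 probes were selected for large values over replicates 2 to 4, so smaller medians elsewhere follow in part from the choice. Over the 1971 probes with a value at the floor, r was 0.18.

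Named genes show what this means for single values. Rpl39l, a ribosomal protein paralogue, had a group difference of -2.69 over replicates 2 to 4 and of -0.09 in the pair. Ifit1 differed by -2.53 and -0.29, Usp18, which removes ISG15 from proteins, by -2.14 and -0.05, and the protease gene Adam8 by 2.17 and -0.26. Isg15 differed by -2.07 over replicates 2 to 4 and by 1.01 in the pair. Htra3 and Mef2a had the same sign in both, with 1.87 and 1.07 over replicates 2 to 4 and 1.02 and 1.37 in the pair. The annotation used here names no Hdac4 probe, and the labels of the pair were not checked against the gene carried by the virus.

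A test of the interaction asked where the replicate 1 difference depended on the group. It rests on 1 array of the pair in each group. It passed for 73 of 16338 probes (0.447%) in limma, 62 of them with a more positive difference in HDAC4, and 2746 probes had an unadjusted p under 0.05. The count fell to 0 without Neo replicate 3 or without HDAC4 replicate 4, to 2 without HDAC4 replicate 2, to 10 without HDAC4 replicate 3 and to 12 without Neo replicate 2, and it rose to 119 without Neo replicate 4. On arrays scaled to one spread it was 32. In 56 of the 73 probes the pair moved in opposite directions in the 2 groups, and in 65 HDAC4 minus Neo had the opposite sign in the pair and in the other arrays. The test selects such probes, so these counts are a description.

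Some of the genes past the interaction test are given here, picked after their values were seen. Dpt, dermatopontin, stood at -0.63 on Neo replicate 1 against 1.64, 1.52 and 1.38 on the other Neo arrays, and at 1.13 on HDAC4 replicate 1 against 0.57, 0.79 and 0.73. The interaction was 2.57 ± 0.23 (SE; adjusted p = 0.0199 in limma). The alarmin gene Il33 differed by -3.38 within Neo and by 0.21 within HDAC4, the chemokine gene Ccl7 by -2.49 and 0.08, Spon2 by -2.08 and 0.15, the progenitor surface marker Cd34 by -1.67 and 0.41, and the matrix protease genes Mmp2 by -1.28 and 0.19 and Mmp14 by -0.94 and 1.07. Mmp14 on each array of the pair was near the level of the other group: 0.05 on Neo replicate 1 beside 0.04 to 0.09 on the other HDAC4 arrays, and 1.14 on HDAC4 replicate 1 beside 0.94 to 1.03 on the other Neo arrays. Dpt is itself one of the 5 fibroblast markers tested. The median difference of these markers was -0.85 within Neo and 0.05 within HDAC4, and their part in the result was not tested.

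Further genes past the interaction test stood apart on HDAC4 replicate 1, on Neo replicate 1 or on both. Cks2, a small subunit of cyclin-dependent kinase complexes, stood at 0.93 on HDAC4 replicate 1 and from -2.98 to -2.49 on the other 7 arrays. Its other probe, at -2.15 on that array, differed by 0.28 between the pair and the others and did not pass. Alcam, an adhesion molecule, differed by 2.93 within HDAC4 and by -0.33 within Neo. Fzd10, a Wnt receptor, stood at 2.34 on HDAC4 replicate 1 and at 5.77 or more on the others. Both Fzd10 values of the pair and 5 of the others were at the reference floor. Foxm1, a transcription factor of mitosis genes, stood at 0.96 on Neo replicate 1 and at -2.20 or less on the others. Igfbp2 rose on Neo replicate 1 by 1.42 and 1.66 on its probes and differed by -0.92 and -0.72 on HDAC4 replicate 1.

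**Figure D5:**
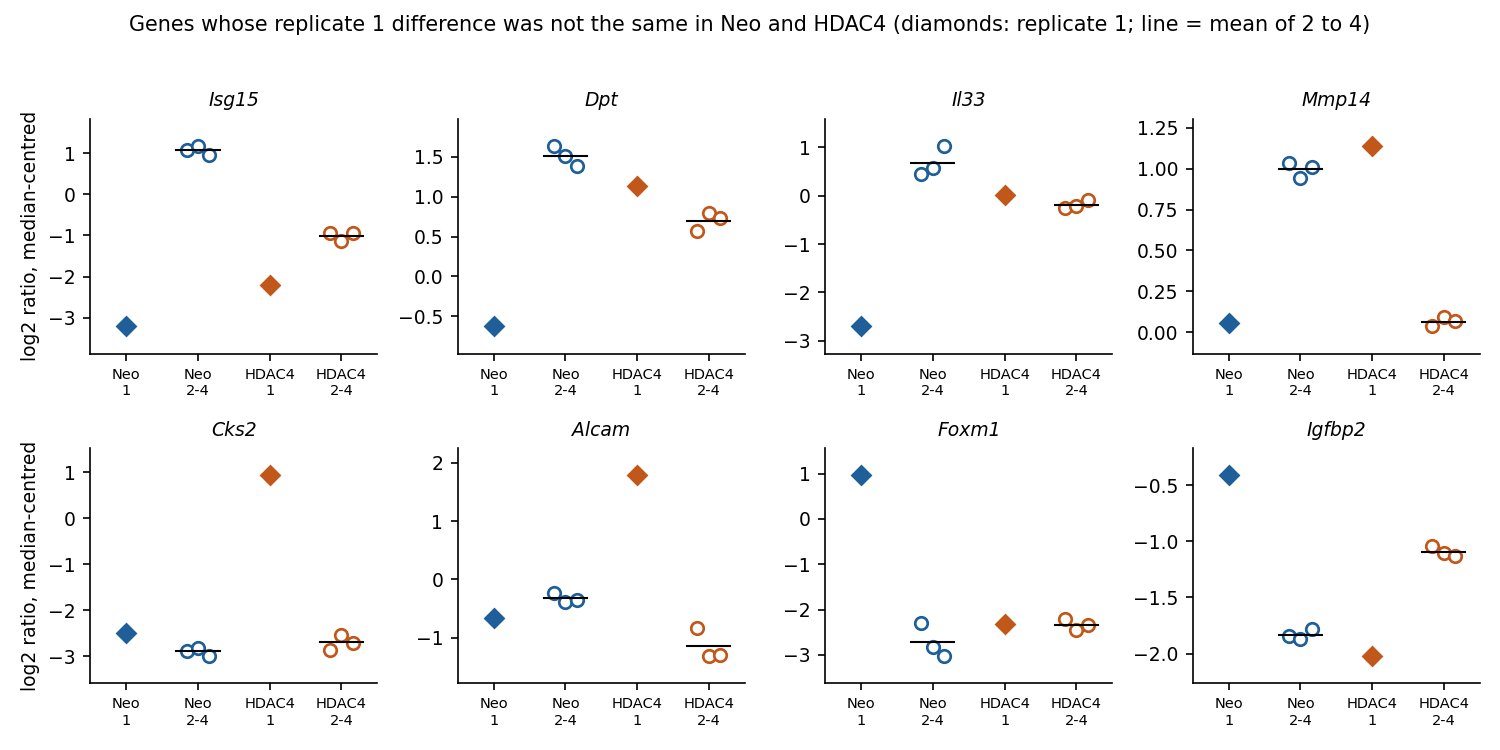
Median-centred log2 ratio of 8 genes with an interaction past the threshold, with symbols as in the plot of 12 genes (filled diamonds replicate 1, open circles replicates 2 to 4, lines their mean). Dpt and Il33 are low on Neo replicate 1 alone, Cks2 and Alcam are high on HDAC4 replicate 1 alone, and Mmp14 and Igfbp2 go opposite ways in the groups.

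Other large changes belong to no list, and each is given for the probe with the largest difference. S100a8, a calcium-binding protein of myeloid cells, differed by 2.48 with values on 4 of the other 6 arrays. The sulphurtransferase Mpst differed by 2.35, the splicing factor Prpf19 by 2.22, the chromatin protein Epc1 by 2.17, the microtubule regulator Stmn2 by 1.98 and the growth factor Ereg by 1.90. Rad51ap1, of recombination repair, differed by 1.68, the spindle protein Spag5 by 1.61 and the homeobox gene Hoxb8 by 1.56. On the other side, Spink4 differed by -3.06, Coro6 by -2.56, Hsd11b1, which regenerates glucocorticoid, by -2.49, Tpm3 by -2.43, Padi2 by -2.33, Sprr1b by -2.28 and the semaphorin co-receptor Plxna1 by -2.08. For Spink4, Coro6, Hsd11b1, Tpm3 and Padi2 both values of the pair were at the reference floor. Each of these genes passed in limma on the probe given, and by the way they were picked both arrays of the pair lie outside the range of the other 6. Epc1 and Spink4 too had values on 4 of the other 6, and 1 Epc1 value of the pair was at the floor. Other probes differed by less: Epc1 by 0.45, Spag5 by 0.40 (not passing), Coro6 by -0.73 and -0.65. Those of Tpm3 differed by -1.03 and -0.52 (the last not passing) and those of Plxna1 by -1.85 and -1.56.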

How the data were processed

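RNA of 4 Neo and 4 HDAC4 samples was measured on 2-colour oligonucleotide arrays against a common reference. Each deposited value is a log2 ratio of a probe on 1 array. How the authors corrected, normalized and filtered it, and with which software, are steps not given in the sources used here. Its direction, cells over reference, was read from muscle genes. Values for which 10 times the ratio was a whole number of at least 10 (tolerance 0.001) were taken as the floor of the reference signal, which is inferred. Probe names come from the platform annotation: 18976 probes name 1 gene, 404 several and 12389 are unnamed here. Symbols were updated through RefSeq (GRCm38.p6).

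Each array was centred on its median. Probes were fitted singly in limma 3.58.1 (R 4.3.3, lmFit and eBayes) with terms for group and replicate 1, or with their interaction. Both fits were run on simulated arrays with known changes on replicate 1 and no pairing by number. The simulated data held no interaction, so its recovery was not tested. A gene rose or fell if a probe of it passed; a gene's difference in a list median is the mean of its probes. Precision is limited by the number of arrays. The members and gene lists were chosen with earlier results of these data known. Genes are named as the 15 largest differences each way among called genes with both replicate 1 values outside the range of the other 6, the 3 smallest p in each of 30 lists, and further list members and interaction genes chosen after their values were seen.

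Same-numbered arrays of the groups were checked for pairing. Deviations from group means, which include replicate 1, correlated across 14746 probes at 0.53, 0.31, 0.21 and 0.11 for numbers 1 to 4. The highest correlation of the same Neo array with an HDAC4 array of another number was -0.30, 0.27, 0.22 and 0.08. The value for number 1 restates that the pair stands apart in both groups, and is not separate evidence of pairing. Pairing is little shown for the rest, with number 3 below its highest other. Arrays of one number were still treated as pairs in the block. Alternatives were quantile normalization, no centring, floor values left out or offset, other filters, gene means, a trended robust variance, the replicate block, no group term, each group alone and each array left out. Arrays scaled to one interquartile range and probes never at the floor were added after seeing the data.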

Additional observations from a re-analysis of the deposited data

Results flagged for a closer look

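Within each group of 4 arrays, the gap between the highest or lowest value and its nearest neighbour was divided by the range of the group, and a share above Dixon's 95% critical value marked an array as standing apart. This was done for the 30 genes with the largest differences, in 72 tests together with the measures of the arrays, and 35 passed. Chance alone passes about 5%, but these genes were picked because both arrays of the pair lie outside the others, so many such gaps follow from the choice.

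Neo replicate 1 stood apart in the interquartile range (gap share 0.925) and the standard deviation (0.928) of its log2 ratios. Both arrays of the pair stood apart in their groups for Ccn2 (0.911 in Neo, 0.936 in HDAC4), Mpst (0.870 and 0.885), Prpf19 (0.844 and 0.898), Stmn2 (0.860 and 0.855) and Tnc (0.892 and 0.919). The same held for Ifit1 (0.889 and 0.845), Isg15 (0.949 and 0.847), Hsd11b1 (0.845 and 0.882), Sprr1b (0.922 and 0.850) and Dcn (0.848 and 0.838). In Neo only, replicate 1 stood apart for Epc1 (0.934), Egr2 (0.891), Ccl8 (0.902) and Padi2 (0.904). In HDAC4 only, it did so for Cks2 (0.915), Mt1 (0.927), Pdgfa (0.946), Spag5 (0.841), Hoxb8 (0.937), Ttn (0.889), Hspg2 (0.907), Tpm3 (0.969) and Plxna1 (0.957).

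Of these genes, 4 also had a replicate 1 difference that depended on the group by the interaction test in limma. The difference in HDAC4 minus that in Neo was 3.22 for Cks2, 3.08 for Isg15, 2.24 for Ifit1 and 2.15 for Sprr1b.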

How the results depend on the processing

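The count of 3645 probes was 1638 genes with probes averaged per gene, 2275 with the replicate block, 227 within Neo alone and 2033 within HDAC4 alone. Leaving out 1 array at a time gave 2010 to 3857. The interaction count of 73 was 46 with quantile normalization, 32 on arrays scaled to one spread, and 0 to 119 with 1 array left out. Of the called probes, 49.0% were higher, against 56.9% with quantile normalization and 65.3% of genes with averaged probes. On arrays scaled to one spread, a setting added after seeing the data, Tnnc1 turned to -0.23, Atp2a1, the sarcoplasmic calcium pump, to -0.61 and Cav3, the muscle caveolin, to -0.35, none of them passing in limma (adjusted p = 0.383, 0.0612 and 0.149). The cause was not tested. Of 112 probes of named genes, 95 kept their direction and their side of the threshold with the replicate block and 17 no longer passed. Those that no longer passed were 79 of 112 within Neo alone, 38 of 108 within HDAC4 alone, 34 of 112 without Neo replicate 1 and 32 of 112 without HDAC4 replicate 1. In the other settings run probe by probe, no named probe changed direction. No depth is known. Values at the reference floor hold the signal of the cells alone, and 22 probes with values on the pair only, and 129 with values on the other 6 only, could not be tested.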
